A study of Canis lupus familiaris with 4 samples.

Results

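The small leucine-rich proteoglycans examined here were 10 genes, DCN, BGN, LUM, FMOD, OGN, ASPN, PRELP, PODN, OMD and ECM2, of the 30951 genes measured. They were chosen by symbol, and each symbol had 1 row in the table. RNA came from adipose tissue-derived mesenchymal stromal cells of 4 dogs, with 1 primary cell line and 1 library per dog. All 4 cultures belonged to a single untreated group, grown in DMEM with 10% serum and kept in multiwell plates for 48 h, so there was no contrast between conditions. Mesenchymal stromal cells are plastic-adherent, matrix-producing cells, and each line was a primary culture of such cells.

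Small leucine-rich proteoglycans are secreted proteins with a curved core of leucine-rich repeats. Many carry glycosaminoglycan chains, which are long sulfated sugar polymers. They bind collagen fibrils and limit fibril width, and several also bind growth factors and cell surface receptors. They are grouped into classes by the spacing of their N-terminal cysteines: DCN, BGN and ASPN are class I, LUM, FMOD, PRELP and OMD class II, OGN class III and PODN class V. ECM2 is a related leucine-rich matrix protein. Fibroblasts of loose connective tissue, adipose stroma included, are a known source of DCN and LUM.

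The libraries held 22411268, 16246965, 15203607 and 7474011 assigned reads for dogs 1 to 4. Dog 4 therefore had the shallowest library. A level below means the deposited log2 value minus the median over the 17200 detected genes of the same library, and a gene was detected when at least 2 libraries held reads of it. Levels were not corrected for transcript length. Differences of 1 gene between dogs do not depend on length, whereas the order of different genes does. In bulk RNA, fewer cells of a type and less RNA per cell cannot be told apart.

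All 9 measured MSC and fibroblast markers were above the median detected gene by over 1 log2 unit (limma), and 8 of them, all but THY1, were lowest in dog 4. Their summed level in dog 4 was 88038 CPM (reads per 1000000 assigned reads), beside 130291 to 135619 in the other dogs. Most of this sum came from the collagens COL1A1, COL1A2 and COL3A1, with 173546, 146119 and 303120 reads in dog 4. VIM was at 8.48 in dog 4 beside 9.48 to 9.59, and PDGFRA at 3.89 beside 4.68 to 5.27. By the same test, 33.3% of all detected genes were above and 35.8% below. Of 8 endothelial markers 0 were above, 3 below, 2 neither and 3 not detected, with 6.96 to 22.0 CPM in sum. PECAM1, TIE1 and EMCN had 0 reads in every dog, whereas VWF had 380, 62, 214 and 12 reads in dogs 1 to 4 and KDR 95, 65, 76 and 34. Of 7 measured blood cell markers 0 were above, 1 below, 1 neither and 5 not detected, with 4.91 to 19.7 CPM in sum. PTPRC had 5 reads in dog 3 alone, whereas CSF1R had 103, 247, 289 and 48 reads.

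The family split into a very abundant and a scarce part. DCN, BGN, LUM and ASPN together held 96.3% to 98.2% of the family's reads, and FMOD and OMD together had 228 reads over the 4 libraries. All 10 genes were detected, with reads in every dog. By the test, DCN, BGN, LUM, ASPN, PODN and OGN exceeded the median detected gene by over 1 log2 unit, 6 of 10 against 33.3% of all detected genes. FMOD and OMD were more than 1 unit below, 2 of 10 against 35.8%, and PRELP and ECM2 were neither, 2 of 10 against 30.9% (limma, distance 1, Benjamini-Hochberg over all detected genes). The median member level was 2.48, beside -0.02 over all detected genes. The family took 0.784%, 0.593%, 0.556% and 1.01% of all assigned reads in dogs 1 to 4, so dog 4 was highest and dog 3 lowest. The mean share was 0.736% ± 0.210 (SD, n = 4), and 0.644% without dog 4.

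**Figure D1:**
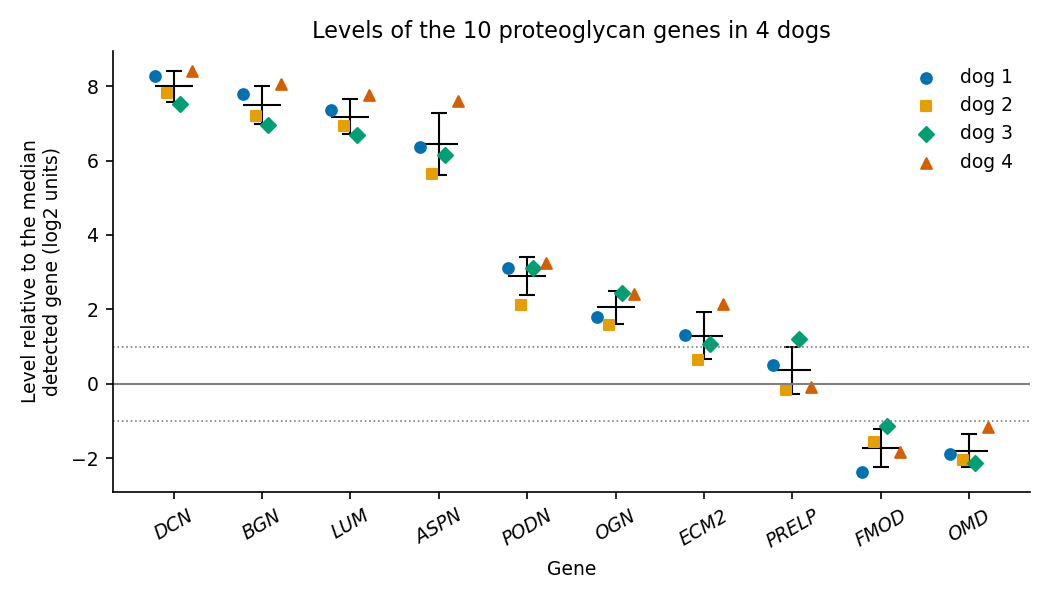
Level of each gene relative to the median detected gene of its library (log2 units, y axis) for the 10 genes (x axis). Points are dogs, the bar and whiskers are the mean ± SD over 4 dogs, and dotted lines mark 1 log2 unit from the median. DCN, BGN, LUM and ASPN lie above 5 in every dog, and FMOD and OMD lie below -1 in every dog.

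Decorin (DCN, ENSCAFG00000006142) binds collagen I fibrils and the growth factor TGF-beta, and carries a chondroitin or dermatan sulfate chain. It had 68830, 39134, 30809 and 24759 reads in dogs 1 to 4. Its levels were 8.29, 7.81, 7.51 and 8.40, so dogs 4 and 1 were high and dog 3 low. The mean was 8.0 ± 0.42 (SD, n = 4; limma, Benjamini-Hochberg adjusted p = 4.16e-09). In CPM the range was 2026 (95% counting interval 2004 to 2049) in dog 3 to 3313 (3272 to 3354) in dog 4. These intervals are exact Poisson intervals and cover counting error only. The intervals of all 6 pairs of dogs were separate.

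Biglycan (BGN, ENSCAFG00000019189) is the closest relative of decorin and is also known as a ligand of Toll-like receptors when released from matrix. Reads numbered 48873, 25472, 21123 and 19496, and levels were 7.79, 7.19, 6.97 and 8.06 in dogs 1 to 4. The dogs stood in the same order as for DCN, with dog 4 highest and dog 3 lowest. The mean level was 7.50 ± 0.51 (SD, n = 4; limma, adjusted p = 4.97e-09), and normalized reads differed 2.10-fold between the highest and the lowest dog.

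Lumican (LUM, ENSCAFG00000006138) is a keratan sulfate proteoglycan that spaces collagen fibrils in cornea and skin. It had 36124, 21301, 17324 and 15902 reads and levels of 7.36, 6.93, 6.68 and 7.76. Again dog 4 was highest and dog 3 lowest. The mean was 7.18 ± 0.48 (SD, n = 4; limma, adjusted p = 4.71e-09), with a 2.09-fold range of normalized reads.

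Asporin (ASPN, ENSCAFG00000002307) binds collagen and TGF-beta. Unlike DCN and BGN, it has a stretch of aspartates near its N-terminus in place of glycosaminoglycan attachment sites. It had 18325, 8696, 12088 and 14148 reads in dogs 1 to 4. Levels were 6.38, 5.64, 6.16 and 7.60, so dog 4 stood 1.22 above the next dog. The mean was 6.44 ± 0.83 (SD, n = 4; limma, adjusted p = 4.82e-08), the largest SD among the 10 members. Normalized reads were 3.82-fold higher in dog 4 than in dog 2. The share of ASPN in the family's reads was 10.4% (exact 95% binomial interval 10.3 to 10.6), 9.03% (8.85 to 9.21), 14.3% (14.1 to 14.6) and 18.7% (18.4 to 18.9) in dogs 1 to 4. Dog 3 thus exceeded dog 1 in this share but not in the level of ASPN.

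Podocan (PODN, ENSCAFG00000019183), a collagen-binding member described in vascular smooth muscle, and osteoglycin (OGN, ENSCAFG00000002313), also called mimecan, lay lower but passed the test. PODN had 1868, 740, 1442 and 685 reads and levels of 3.10, 2.13, 3.12 and 3.25 in dogs 1 to 4. Dogs 1, 3 and 4 were within 0.14 of each other and dog 2 was low, with a gap of 0.872 of the range; 5.36% of all detected genes had 1 dog as far or farther apart than the limit used. The mean was 2.90 ± 0.52 (SD, n = 4; limma, adjusted p = 4.21e-06). OGN had 731, 501, 901 and 383 reads and levels of 1.78, 1.58, 2.45 and 2.42, with dogs 3 and 4 high and dogs 1 and 2 low. Its mean was 2.06 ± 0.44 (SD, n = 4; limma, adjusted p = 1.27e-04). The call of OGN was lost when the reference was the median over genes with reads in all 4 libraries (level 1.24, adjusted p = 0.14) or over detected genes with a symbol (1.25, adjusted p = 0.127). Those references lie 0.82 and 0.81 log2 units higher.

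The 2 members that were neither above nor below were ECM2 and PRELP. ECM2 (ENSCAFG00000002301) had 522, 250, 331 and 312 reads and levels of 1.32, 0.64, 1.06 and 2.13 in dogs 1 to 4. Dog 4 was high and dog 2 low, and all 4 values were above the median. The mean was 1.29 ± 0.63 (SD, n = 4; limma, adjusted p = 0.15). PRELP (ENSCAFG00000009462) is a basic matrix protein of cartilage and basement membranes that binds heparan sulfate. It had 282, 134, 365 and 60 reads and levels of 0.49, -0.17, 1.19 and -0.08, with a mean of 0.36 ± 0.63 (SD, n = 4; limma, adjusted p = 1). Dog 3 was high, and the dogs lay on either side of the median. Without dog 3 the mean was -0.095.

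Fibromodulin (FMOD, ENSCAFG00000009459), which competes with LUM for a site on collagen I and is prominent in tendon, had 19, 39, 57 and 12 reads in dogs 1 to 4. Its levels were -2.36, -1.56, -1.13 and -1.84, with dog 3 highest and dog 1 lowest. The mean was -1.72 ± 0.52 (SD, n = 4; limma, adjusted p = 0.0172). The adjusted p was 0.0578 when all genes of the table were tested. Osteomodulin (OMD, ENSCAFG00000002309), a keratan sulfate proteoglycan of mineralized tissue, had 34, 23, 20 and 24 reads. Its levels were -1.90, -2.04, -2.13 and -1.16, so dog 4 was high. The mean was -1.81 ± 0.44 (SD, n = 4; limma, adjusted p = 0.00882). Counting error was large for both genes. For OMD, 1 of 6 pairs of dogs had separate counting intervals (dog 4 at 3.21 CPM, 2.06 to 4.78, and dog 3 at 1.32 CPM, 0.804 to 2.03), and for FMOD 3 of 6.

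From high to low, the uncorrected levels ran DCN, BGN, LUM, ASPN, PODN, OGN, ECM2, PRELP, FMOD and OMD. In 7 of the 9 neighbouring pairs of this order the first gene was higher in 4 of 4 dogs. Flipping the signs of the 4 differences in every way, a two-sided exact permutation test, gave those pairs p = 0.125 (0.161 after Benjamini-Hochberg adjustment over the 9 pairs), the smallest p that 4 dogs allow, so none could pass 0.05. ECM2 exceeded PRELP in 3 of 4 dogs (mean difference 0.93 ± 0.97, exact p = 0.25). FMOD exceeded OMD in 2 of 4 (0.08 ± 0.79, exact p = 0.875), and their order turned without dog 2 (-0.05) or dog 3 (-0.22).

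The members did not share 1 pattern between the dogs. DCN, BGN, LUM, ASPN, PODN, OMD and ECM2 were highest in dog 4, 7 of 10 against 35.5% of the 13834 genes with reads in all dogs. FMOD, OGN and PRELP were highest in dog 3. ASPN, ECM2, OGN, PODN and PRELP were lowest in dog 2, 5 of 10 against 20.3% of those genes. The count highest in dog 4 was 6 on the CPM scale, where PODN was highest in dog 3 and PRELP lowest in dog 4, and 6 after quantile normalization, where DCN was highest in dog 1. With 1 library per dog, a dog's level cannot be told apart from that of its culture and library.

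**Figure D2:**
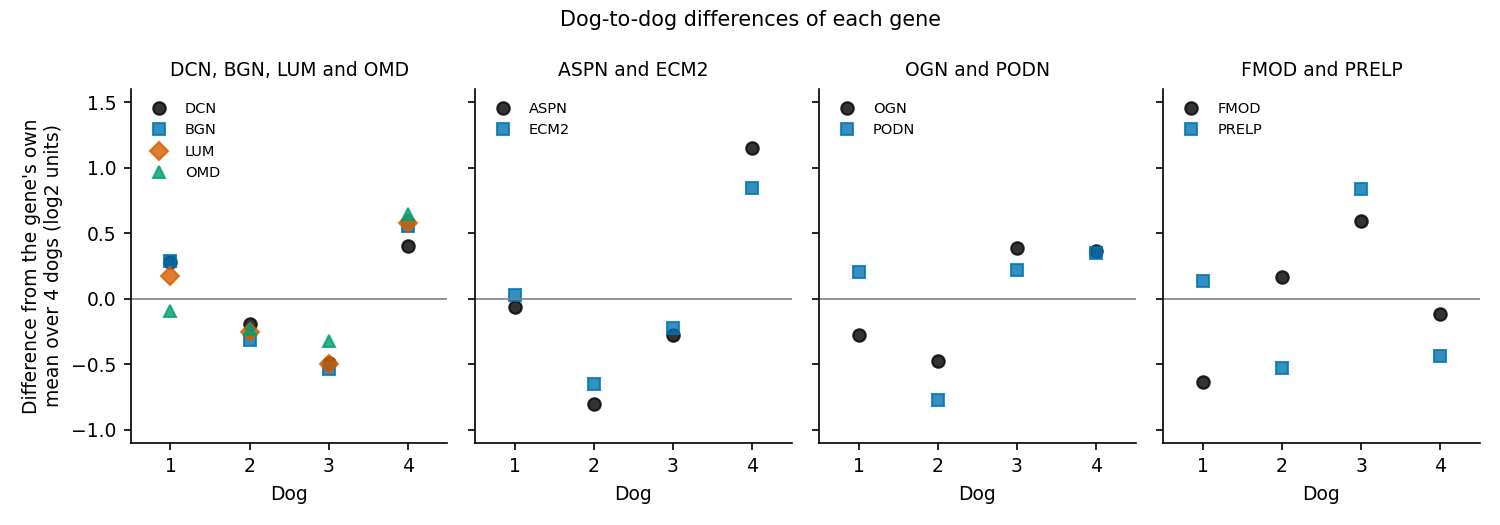
Each point is a gene's level in 1 dog minus its own mean over the 4 dogs (log2 units, y axis), with dogs on the x axis and genes by colour and marker. DCN, BGN, LUM and OMD are above their means in dog 4 and below them in dogs 2 and 3, ASPN and ECM2 reach their lowest point in dog 2, and FMOD and PRELP peak in dog 3.

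DCN, BGN and LUM moved together most closely. Their levels had the order dog 4, 1, 2, 3, which 7.92% of genes with reads in all dogs also had, and OMD had it too. Likeness was measured as the root mean square difference of the centred levels over the 4 dogs, where 0 means identical differences between dogs. Among the 45 pairs of members, BGN and LUM had the smallest value (0.07), followed by DCN and BGN (0.10) and DCN and LUM (0.11), beside a median of 0.46 over all pairs. Leaving out each dog in turn gave 0.02 to 0.08, 0.05 to 0.12 and 0.04 to 0.13 for these 3 pairs. The ratio of BGN to LUM reads varied 1.13-fold between dogs, that of DCN to BGN reads 1.21-fold and that of DCN to LUM reads 1.22-fold. Transcript length cancels in the change of such a ratio. Each of the 3 genes alone varied at least 1.83-fold in normalized reads, a size that depended on the normalization. After quantile normalization the SD between dogs was 0.14 in place of 0.42 for DCN. It was 0.26 in place of 0.51 for BGN and 0.22 in place of 0.48 for LUM.

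ASPN and ECM2 were also close, with the order dog 4, 1, 3, 2 (5.52% of genes with reads in all dogs) and a value of 0.18, or 0.04 to 0.20 with 1 dog left out. After quantile normalization dog 3 exceeded dog 1 for ASPN. The ratio of their reads varied 1.30-fold, while ASPN alone varied 3.82-fold and ECM2 alone 2.93-fold. By likeness value alone, LUM and OMD were closer still at 0.16, BGN and OMD stood at 0.23, and OMD was at 0.24 from both DCN and ECM2. By the ratio of reads, ASPN and ECM2 were the closer pair. LUM had 1062, 926, 866 and 663 reads per OMD read in dogs 1 to 4. This spread was proportionally wider than that of ASPN, with 35.1, 34.8, 36.5 and 45.3 reads per ECM2 read. OMD had only 20 to 34 reads per library. OGN and PODN, rank 10 of 45 at 0.30, were both lowest in dog 2. Of 7977 named genes at or above the median level, 698 were nearer to OGN than PODN was, and 243 nearer to PODN than OGN was. FMOD and PRELP, although both were highest in dog 3, differed by 0.55, with the ratio of their reads varying 4.32-fold. The least alike pair was ASPN and PRELP at 0.99.

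Several members lie side by side in the genome. In the RefSeq annotation of the dog assembly UU_Cfam_GSD_1.0, which is not the build used by the authors, EPYC, KERA, LUM and DCN are consecutive coding genes, as are ECM2, ASPN, OMD and OGN, and FMOD, PRELP and OPTC. All 10 members matched that table by symbol. The 8 pairs of members at a shared locus had a median likeness value of 0.40, beside 0.50 for the 37 other pairs, and ranks from 3 (DCN and LUM) to 31 (FMOD and PRELP) of 45. BGN, which lies apart from LUM and DCN, was closer to each of them than they were to each other. The neighbours KERA (6, 5, 5 and 5 reads in dogs 1 to 4) and EPYC (8, 14, 0 and 7 reads) were near the floor beside the abundant LUM and DCN. The genes ECM2, ASPN, OMD and OGN lie inside the span of CENPP, which had 177, 117, 148 and 37 reads. PODN overlaps SLC1A7, which had 43, 54, 60 and 29 reads. How the authors' counting treated strand was not known here, and reads shared with these overlapping genes cannot be told apart. The scarce OMD is the member for which CENPP had more reads in every dog.

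The SD between dogs was above the median SD of genes of like level for 8 of the 10 members; as many of those genes lie above that median as below it. The median SD of the members was 0.51, beside 0.36 over all detected genes. Of the 68 genes within 0.5 log2 units of its level, 94.1% had a smaller SD than ASPN. That share was 92.8% for ECM2, 90.9% for PODN, 87.8% for PRELP and 85.9% for OGN. It was 67.5% for LUM, 58.3% for BGN and 53.9% for FMOD, and 46.7% for DCN and 40.0% for OMD. Against the variance that limma's trend gives genes of the same level, no member passed an F test (Benjamini-Hochberg, 0 of 10, background 0%). The smallest adjusted p was that of ASPN, 0.781. On simulated data this F test called 39% of genes given an SD of 1.5, larger than that of any member. That no member passed therefore does not show that the members varied little. At an unadjusted p under 0.05 of the same limma-based F test ASPN alone passed, 1 of 10 against 5.2% of all detected genes.

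**Figure D3:**
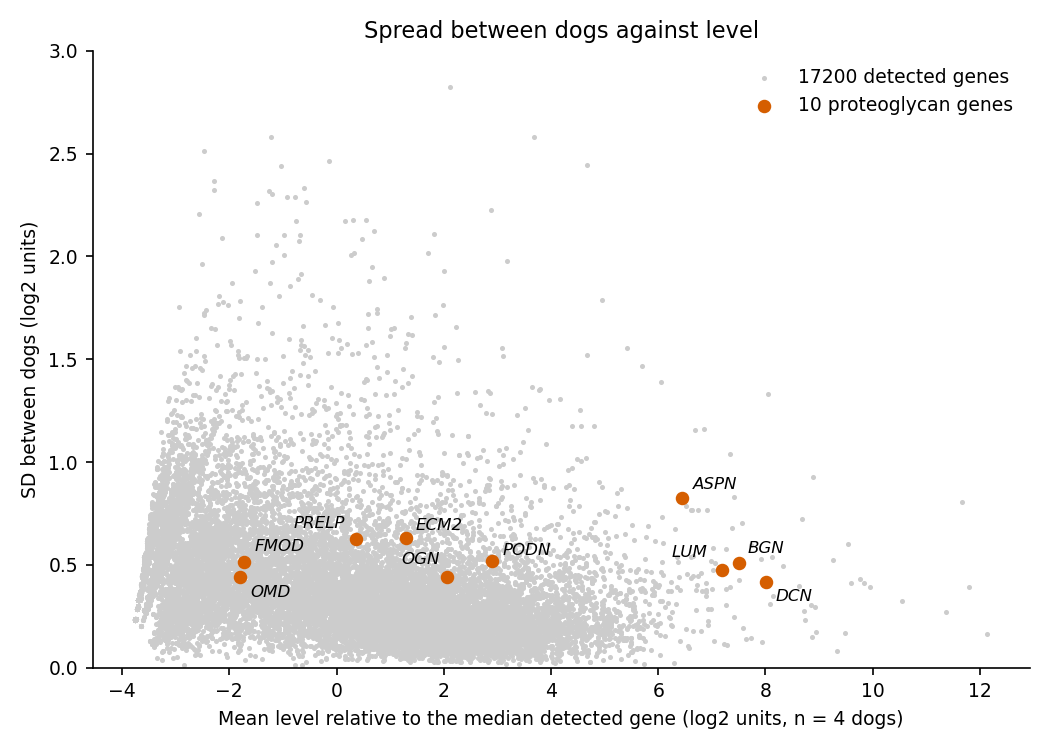
SD between the 4 dogs (log2 units, y axis) against mean level relative to the median detected gene (log2 units, x axis) for the 17200 detected genes (grey) and the 10 proteoglycan genes (orange). ASPN has the largest SD of the 10 (0.83), and DCN, BGN and LUM sit at the high end of the level axis with SDs of 0.42 to 0.51.

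Relative to fibrillar collagen, the abundant proteoglycans differed most in dog 4. DCN had 76.3, 54.8, 44.6 and 143 reads per 1000 COL1A1 reads in dogs 1 to 4, and BGN had 54.2, 35.7, 30.6 and 112. LUM had 40.1, 29.8, 25.1 and 91.6, and ASPN 20.3, 12.2, 17.5 and 81.5. For all 4 genes dog 4 was the highest, by 1.87-fold or more over the next dog. COL1A1 itself had levels of 12.00, 12.00, 12.00 and 11.21, so it was itself lowest in dog 4. Per 1000 COL3A1 reads, whose level varied less (SD 0.16), DCN had 58.7, 51.1, 43.2 and 81.7 and ASPN 15.6, 11.3, 16.9 and 46.7. Dog 4 was again highest, and the range narrowed from 3.20-fold to 1.89-fold for DCN and from 6.69-fold to 4.11-fold for ASPN. The picture turned against VCAN, TAGLN and ACTA2, which were themselves highest in dog 4. Relative to each of these, DCN, BGN and LUM were lowest in dog 4 and ASPN was highest in dog 3. Per 1000 ACTA2 reads, DCN had 1671, 2122, 2197 and 805 in dogs 1 to 4. Relative to THY1, DCN, BGN and LUM were highest in dog 1 and lowest in dog 3.

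**Figure D4:**
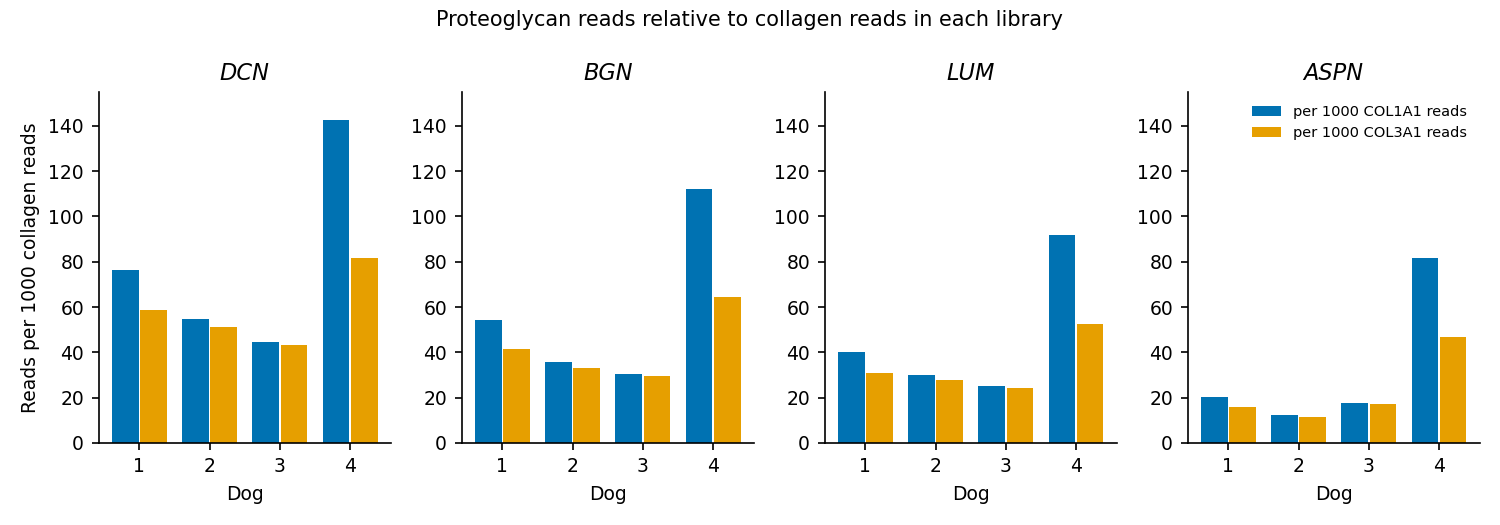
Reads of DCN, BGN, LUM and ASPN per 1000 reads of COL1A1 (blue) and of COL3A1 (orange) in each library, with dogs on the x axis; each bar is 1 library. Dog 4 is highest in every panel, for DCN at 143 per 1000 COL1A1 reads beside 44.6 to 76.3 in the other dogs.

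Some contractile markers had the same order of dogs as DCN, BGN and LUM. The summed level of the 8 smooth muscle and pericyte markers was 4257, 3093, 2240 and 7947 CPM in dogs 1 to 4. The actin-binding TAGLN had levels of 7.67, 7.16, 6.56 and 8.14 and smooth muscle actin (ACTA2) 7.54, 6.72, 6.38 and 8.72. With MYH11 and CNN1, 4 of the 6 markers with reads in all dogs had the order dog 4, 1, 2, 3. The other two were highest in dog 4 but had another order, NOTCH3 at 4.21, 4.60, 3.74 and 6.10 and MCAM at -0.49, -0.25, -0.47 and -0.17. Of all 8 markers, 5 were above (33.3% of all detected genes), 1 below (35.8%), 1 neither and 1 not detected. The defining marker RGS5 had 0 reads in every dog. DES, the marker below, had 0, 0, 3 and 4 reads, so that 0 were below without dog 3 or dog 4. The large chondroitin sulfate proteoglycan VCAN also had this order, at 8.62, 8.58, 7.87 and 9.63. The order was not particular to contractile genes, and 7.92% of the 13834 genes with reads in all dogs had it. Among genes with reads in all dogs, 5 of 17 receptors and growth factors, 2 of 9 sulfation genes and 2 of 4 osteoblast markers had it. So did 1 of 11 proteases, 1 of 11 collagens and 1 of 5 tenocyte markers. It was absent from the 15 chain synthesis genes and the 9 MSC and fibroblast markers. The part of cell composition in the differences of the proteoglycans between dogs was not tested. Dog 4 also had the lowest depth. With all libraries thinned to the shallowest, 3 of DCN, BGN and LUM had the order dog 4, 1, 2, 3, and after quantile normalization 2 had it, as DCN was then highest in dog 1. These genes had 15902 or more reads in every library, so the counting error added by thinning could hardly change their order. The part of depth in the order was not tested.

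The genes nearest to each member in likeness were taken among 7977 named genes at or above the median level. For DCN they were ZCCHC2 (0.01), the cyclin CCND3 (0.01) and the tropomyosin TPM4 (0.02). For BGN they were BBX (0.02), NDRG2 (0.04) and GPRASP2 (0.04), and for LUM the Golgi tether GOLGA4 (0.03), the actin- and myosin-binding caldesmon CALD1 (0.04) and ZMAT3 (0.04). For ASPN they were the vasoactive peptide gene ADM (0.08), GPRC5B (0.08) and ZNF395 (0.08), and for ECM2 DNMBP (0.05), the actin-binding supervillin SVIL (0.06) and VGLL3 (0.07). For OMD they were ARNT2, LPP and SREK1 (0.02 to 0.04), for OGN ARMH4, TMEM106C and CAV2 (0.03 to 0.07) and for PODN CDC42EP5, ZNF385D and ACVRL1 (0.09 to 0.12). For FMOD they were SEC61A2, RNLS and PCTP (0.07 to 0.09), and for PRELP HMGA1, TRMO and SGK1 (0.07 to 0.14). Of the 7977 genes, 13 were nearer to BGN than LUM was, 70 nearer to DCN than BGN was and 16 nearer to ASPN than ECM2 was. These values rest on 4 libraries that differ in depth and were transformed together, and are a description.

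Other leucine-rich relatives of the family were scarce. Of 7 measured, 0 were above, 4 below (KERA, EPYC, CHAD and NYX), 2 neither and 1 not detected, with a median level of -2.72. For this and every other list, the limma counts above and below were the same at an unadjusted p under 0.05. The shares of all detected genes to set beside these counts were 33.3% above and 35.8% below. The BMP and Wnt regulator TSKU had 547, 192, 183 and 82 reads and a level of 0.57 ± 0.54, and PODNL1, the paralog of PODN, -1.01 ± 0.73. OPTC, the neighbour of PRELP, had 14 reads in dog 1 alone. Among 7 large chondroitin sulfate proteoglycans, VCAN (8.67 ± 0.72) and CSPG4 (4.50 ± 0.39) were above and 5 were below, cartilage aggrecan (ACAN) at -2.33 ± 0.39. The number below was 3 without dog 2, and 3 when only genes with reads in all 4 libraries were kept.

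Genes that build glycosaminoglycan chains were mostly above the median detected gene. Of 15 genes of the linker and of chondroitin or dermatan chain synthesis, 11 were above, 0 below and 4 neither, with a median level of 2.16. Over all detected genes 33.3% were above and 35.8% below. The number above was 9 under both other reference medians and 7 with a distance of 2. The chondroitin polymerizing factor CHPF (4.20 ± 0.38) and the dermatan sulfate epimerases DSEL (3.66 ± 0.92) and DSE (3.62 ± 0.37) were highest. DSEL was lowest in dog 4 (4.22, 3.64, 4.40 and 2.36 in dogs 1 to 4), where DCN and BGN, which can carry dermatan sulfate, were highest. DSE was highest there (3.69, 3.30, 3.38 and 4.12). CHSY3 (0.00 ± 0.39) and the linker galactosyltransferase B3GALT6 (-0.38 ± 0.32) were lowest. Of 10 measured genes of chondroitin and dermatan sulfation, 4 were above, near the 33.3% of all detected genes, 1 below and 5 neither. The sulfate donor synthases PAPSS1 (3.54 ± 0.07) and PAPSS2 (3.19 ± 0.27) and the uronyl sulfotransferase UST (2.77 ± 0.24) led it, and CHST7 had 4, 1, 1 and 0 reads.

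For keratan sulfate, the chain type of LUM, FMOD and OMD, 6 of 10 genes were measured. B4GALT1 (3.19 ± 0.23), B3GNT2 (2.15 ± 0.05), FUT8 (2.01 ± 0.11) and B4GALT4 (1.72 ± 0.26) were above, and 2 were above when the reference was the median over genes with reads in all 4 libraries. Of all detected genes, 33.3% were above. These 4 enzymes also act on other glycans. The keratan sulfotransferase CHST1 was neither (-0.76 ± 0.61), and CHST4 had 0 reads in every dog, which allows up to 0.134, 0.185, 0.197 and 0.401 CPM in dogs 1 to 4 by counting error alone.

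**Figure D5:**
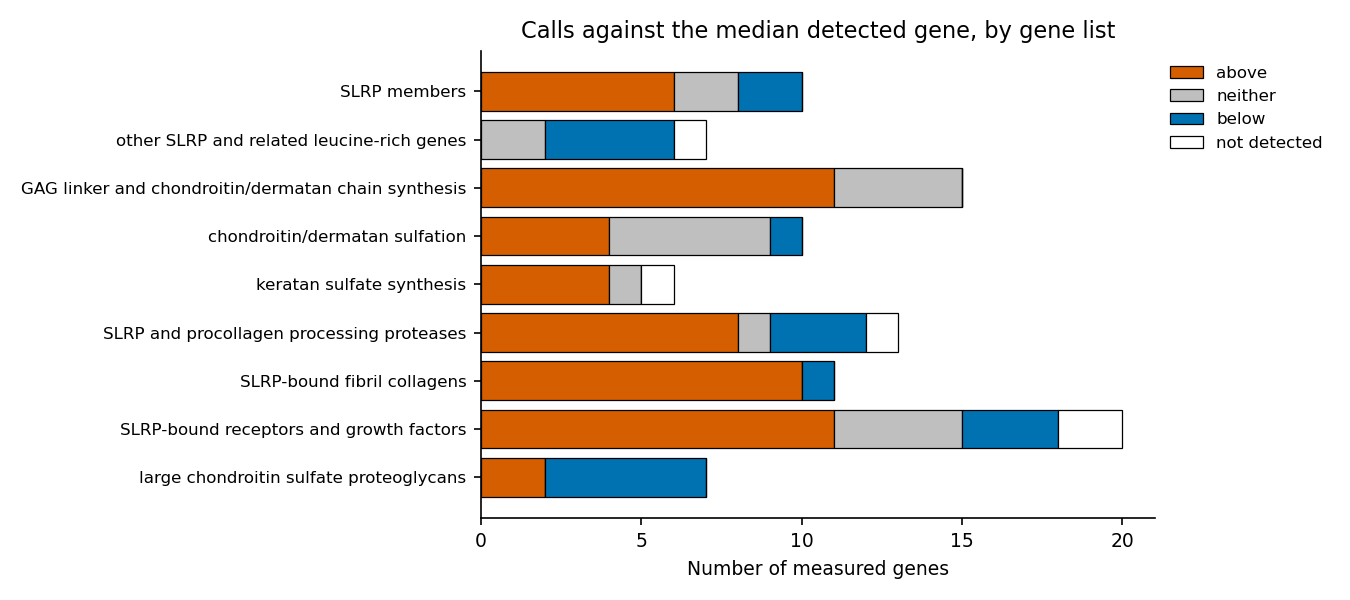
Number of measured genes (x axis) in each gene list (y axis) that were above, neither above nor below, or below the median detected gene by more than 1 log2 unit (limma, Benjamini-Hochberg), or not detected. Of 15 genes of linker and chondroitin or dermatan chain (GAG) synthesis 11 are above and 0 below, while 0 of 7 other leucine-rich (SLRP) relatives are above.

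Proteases that process these proteoglycans or procollagen were largely above the median. Of 13 measured, 8 were above (33.3% of all detected genes), 3 below (35.8%), 1 neither and 1 not detected. The gelatinase MMP2 (7.40 ± 0.83), its membrane-bound activator MMP14 (6.90 ± 0.35) and BMP1, which cleaves the propeptides of BGN and of procollagen (5.65 ± 0.43), were highest. MMP2 had levels of 8.18, 7.0, 6.43 and 8.01, with dogs 1 and 4 high and dog 3 lowest. The BMP1 relative TLL2 (-2.79 ± 0.53) and the collagenase MMP13 (-3.08 ± 0.70) were lowest.

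Of 11 measured collagens of the fibrils that the family binds, 10 were above (33.3% of all detected genes) and 1 below (35.8%). COL3A1 (12.13 ± 0.16), COL1A1 (11.80 ± 0.39) and COL1A2 (11.37 ± 0.27) led, and cartilage COL2A1 was below at -3.28 ± 0.36. COL14A1, a fibril-associated collagen known to bind DCN, had 2357, 1768, 1777 and 130 reads. Its level in dog 4 was 0.93, beside 3.36 to 3.43 in the other dogs. COL1A1, COL1A2, COL3A1, COL6A1 and COL6A3 were also lowest in dog 4. COL12A1 and COL11A1 went the other way and were highest there. COL12A1 had levels of 7.76, 7.27, 7.14 and 10.00 in dogs 1 to 4, and COL11A1 3.72, 4.43, 3.34 and 4.82.

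Among 20 receptors and growth factors that bind proteoglycans of the family, 11 were above, 3 below, 4 neither and 2 not detected. Over all detected genes 33.3% were above and 35.8% below. LRP1, an endocytic receptor of DCN (9.47 ± 0.17), integrin ITGB1 (6.99 ± 0.52) and the DCN-binding matricellular factor CCN2 (4.56 ± 1.17) were highest. CCN2 was highest in dog 4 and lowest in dog 2 (4.66, 3.46, 3.95 and 6.16), as were ASPN and ECM2. The Toll-like receptors TLR2 (-2.20 ± 1.22) and TLR4 (-2.18 ± 0.26), which bind soluble BGN and DCN, were below, with 0, 21, 53 and 17 reads of TLR2 and 14, 23, 23 and 9 of TLR4.

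Members of the family are also known from tendon, bone and cartilage. Of the markers of those tissues, 5, 5 and 7 were detected, of which 3, 2 and 4 were below (35.8% of all detected genes) and 1 each was above (33.3%). Of 7 measured tenocyte markers 1 was above, the matrix protein TNC (8.62 ± 0.40), 3 were below and 2 not detected, with 0 reads of TNMD in every dog. The number above was 2 without dog 4, in which EGR1 was at -0.21, and EGR1 reached 1.95 in dog 1. The tendon regulator SCX was below at -2.44 ± 0.84, with 11, 7, 5 and 23 reads. Of 7 osteoblast markers RUNX2 was above (1.71 ± 0.69). It lost its call without dog 1, 2 or 3 and under both other reference medians. ALPL (-2.80 ± 0.11) and SPP1 (-3.65 ± 0.40, with 1, 4, 0 and 0 reads) were below. The number below was 1 without dog 1, without dog 2 or after thinning. Of 8 chondrocyte markers COL11A1 was above (4.08 ± 0.67) and 4 were below, COL2A1 and ACAN among them. Of 6 measured adipocyte markers 0 were above and 3 below. The 3 below all had no reads in at least 1 dog. None of the 5 measured epithelial and mesothelial markers was above, but KRT18 had 9, 9, 25 and 435 reads, high in dog 4, and WT1 148, 91, 317 and 0.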

How the data were processed

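RNA-seq libraries of 4 primary MSC cultures, each from another dog, were made from 10 ng of total RNA with a stranded kit that removes ribosomal RNA, per the labels' protocols. The submitters' processing notes name FastQC 0.12.1, Trimmomatic 0.39, STAR 2.7.11a, DESeq2 and the build CanFam3.1. The counting software, the strandedness of the counts and the gene annotation were not given in the sources used here. The deposited values are log2 values that the authors made with DESeq2's variance-stabilizing transformation, per the file headers.

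Inverting the transformation gave whole reads within 0.01 for 100% of the values above the lowest, with library size factors of 1.39, 1.08, 1.05 and 0.461. Reads served for depth, shares, CPM and ratios. Levels were tested on the deposited log2 values with limma 3.58.1 (R 4.3.3) in an intercept-only fit, against a distance of 1 log2 unit with a trended prior, adjusted by Benjamini-Hochberg over 17200 detected genes at a threshold of 0.05. Variability was tested by an F test against the prior variance. The library names give each replicate its own dog, and p-values use the spread between dogs. The fits were tested on simulated data.

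Named genes were the 10 members, the 3 nearest genes of each member in likeness, and the 3 highest and 2 lowest detected members of each of 17 other lists (146 of their 163 other genes were measured). NYX, OPTC, RGS5, CHST4, TNMD, PECAM1, TIE1, EMCN, PTPRC, VIM, PDGFRA, MYH11, CNN1, CENPP and SLC1A7 fall outside that rule and were named after their values were seen. COL6A1, COL6A3 and COL12A1 fall outside it too and were named in the same way. The members and lists were chosen with earlier results of these data known. The order of members was planned per transcript length, but no transcript lengths were used here, so it is uncorrected. Alternatives covered the reference, distance, scale, normalization, filters, prior, depth and each dog left out, and CPM was added after seeing the data.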

Additional observations from a re-analysis of the deposited data

Results flagged for a closer look

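In 3 of 23 sets of 4 values (the levels of the 10 members and their shares of reads), 1 dog stood farther from the others than Dixon's 95% limit for 4 values; chance gives about 1 in 20, and 5.36% of all detected genes passed it. PODN was low in dog 2, at a level of 2.13 beside 3.10 to 3.25 in the other dogs, with a gap of 0.872 of the range. The summed share of DCN, BGN, LUM and ASPN in the family's reads was 96.3% in dog 3 and 98.0% to 98.2% in the other dogs, with a gap of 0.888 of the range. The share of OGN was 1.07% in dog 3 (exact 95% binomial interval 0.999 to 1.14) and 0.416% to 0.520% in the other dogs, with a gap of 0.840 of the range. The shares share a denominator, so these 2 flags are not independent of each other.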

How the results depend on the processing

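The levels of DCN, BGN, LUM, ASPN and PODN kept their direction and their call under all 14 alternatives, and the number of members above was 5 to 7 over them. With a distance of 2, 0 members were below and 5 neither, as FMOD (-1.72), OMD (-1.81) and OGN (2.06) lost their calls. With a distance of 0.5, 1 member was neither, since ECM2 (1.29) was called above (adjusted p = 0.00369). With no filter on low values, 1 member was below, as FMOD (-1.72) missed the threshold. With the median over genes with reads in all 4 libraries, OGN stood at 1.24 without a call and PRELP at -0.46, and with the median over detected genes with a symbol at 1.25 and -0.45. PRELP had no call under any alternative and was -0.095 without dog 3 and 0.06 to 0.28 without another dog. Leaving out each dog in turn changed no call of a member. The difference between FMOD and OMD (0.08) became -0.05 without dog 2 and -0.22 without dog 3, and reached 0.34 without dog 4. Among the other genes of the lists (32 below, 29 neither and 22 not detected), 20 were below and 56 neither with a distance of 2, 18 were below and 37 not tested when only genes with reads in all 4 libraries were kept, and 49 were below and 0 not tested with no filter. On the CPM scale 1 member, PRELP, was lowest in dog 4 in place of 0. After quantile normalization 1 of ASPN and ECM2 kept the order dog 4, 1, 3, 2 in place of 2. No member passed the variability test under any alternative run for it, but in the main setting no detected gene passed it either. No paired analysis was possible because there was 1 group with 1 library per dog. The order corrected for transcript length was not run. Reads limit FMOD and OMD, with 12 to 57 and 20 to 34 reads per library.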
